A study of Mus musculus with 272 samples.

Results

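The promoters described here carried H3K4me3 but neither H3K27ac nor H3K27me3 in muscle stem cells (MuSCs). They were chosen by the peak lists themselves. A protein-coding gene was taken when an H3K4me3 peak lay within 3 kb of any of its transcription start sites in both replicates, and no H3K27ac or H3K27me3 peak lay in the same windows in either replicate. Of 21938 protein-coding genes, 13328 (60.8%) had H3K4me3 at the promoter in both replicates, and 1518 of these carried H3K4me3 alone, which is 11.4% of the genes with H3K4me3 and 6.92% of all genes. Membership was therefore selected on the 3 histone marks, and values of those marks are given as a description. Accessibility by ATAC-seq, promoter sequence and chromosome were not used to choose the genes.

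MuSCs are the resident stem cells of skeletal muscle and are marked by the transcription factor PAX7. The cells came from hindlimb muscles of Pax7Cas9 mice, in which Pax7Cre switches on Cas9 and GFP from a Cre-dependent allele, and GFP+ cells were sorted by FACS. All 8 libraries used here share this genotype and no treatment separates them: there were 2 replicates each of ATAC-seq, H3K4me3, H3K27ac and H3K27me3, and the age and sex of the mice behind these libraries are not given in the sources used here. The sources do not state whether the replicates came from separate mice.

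H3K4me3 is a methylation of histone H3 that is deposited around start sites, mostly at CpG-rich promoters, and it is found both where transcription runs and where it is held ready. H3K27ac is an acetylation that accompanies active promoters and enhancers, whereas H3K27me3 is laid down by Polycomb complexes at silenced developmental genes. The 2 H3K27 marks occupy the same residue, so a promoter with H3K4me3 and no peak of either is neither in the usual active nor in the usual bivalent state by these lists. A missing peak means that none was listed, since a region below the calling limit and a region without the mark cannot be told apart in a peak list. ATAC-seq inserts a transposase into open chromatin and so reads accessibility.

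The labelled cell type was checked against its markers. All 13 MuSC markers had H3K4me3, and 12 of them, among them Pax7, Myf5 and Myod1, also had H3K27ac in both replicates. The remaining marker, Calcr, carried H3K4me3 alone. Of the markers of other cells, 5 of 10 fibro-adipogenic, 5 of 10 endothelial and 3 of 9 blood genes had no H3K4me3 peak in either replicate. The same held for 5 of 10 myofibre and 4 of 10 neuron genes. H3K4me3 with H3K27ac in both replicates and no H3K27me3 was seen for 3, 1, 1, 2 and 0 genes of these lists, in the same order. A part of other cells in the marks was not tested, and in such bulk libraries a mark in a fraction of the cells and a weaker mark in all of them cannot be told apart.

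The promoters below are examples of the sequence behind H3K4me3 alone. Each run is the 250 bases before the start site nearest to the strongest H3K4me3 peak (for Myh4, the start of the gene), 5′ to 3′ on the strand of the gene, from RefSeq on build GRCm38.p6, and the capitals mark CpG dinucleotides. Stk39 (chr2:68471982-68472231, minus strand) and Kif17 (chr4:138262001-138262250, plus strand, an internal start site) are from the genes with the highest H3K4me3. Mitf (chr6:97806808-97807057, plus strand) is from those with the highest ATAC-seq enrichment, and Ppfia2 (chr10:106470060-106470309, plus strand) is from those with no ATAC-seq peak. Calcr (chr6:3763624-3763873, minus strand) is the MuSC marker. Pax7 (chr4:139832969-139833218, minus strand), with H3K4me3 and H3K27ac, and Myh4 (chr11:67237562-67237811, plus strand), a myosin gene of the myofibre with no H3K4me3, stand beside them for contrast.
Stk39: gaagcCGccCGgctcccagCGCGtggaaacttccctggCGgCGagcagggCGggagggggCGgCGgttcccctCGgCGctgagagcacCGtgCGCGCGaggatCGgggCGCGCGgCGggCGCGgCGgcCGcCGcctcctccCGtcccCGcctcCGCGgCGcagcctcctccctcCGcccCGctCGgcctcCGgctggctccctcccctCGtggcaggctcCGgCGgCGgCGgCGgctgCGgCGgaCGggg
Kif17: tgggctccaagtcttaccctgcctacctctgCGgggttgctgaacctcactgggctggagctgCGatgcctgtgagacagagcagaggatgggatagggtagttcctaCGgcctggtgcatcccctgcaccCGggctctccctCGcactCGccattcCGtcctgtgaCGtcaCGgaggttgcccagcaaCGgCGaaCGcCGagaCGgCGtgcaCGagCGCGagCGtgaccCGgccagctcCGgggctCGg
Mitf: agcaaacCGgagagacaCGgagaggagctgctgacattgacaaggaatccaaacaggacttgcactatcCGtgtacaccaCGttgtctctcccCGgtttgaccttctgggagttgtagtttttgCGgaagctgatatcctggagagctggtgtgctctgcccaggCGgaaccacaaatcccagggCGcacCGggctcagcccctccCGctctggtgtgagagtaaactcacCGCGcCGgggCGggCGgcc
Ppfia2: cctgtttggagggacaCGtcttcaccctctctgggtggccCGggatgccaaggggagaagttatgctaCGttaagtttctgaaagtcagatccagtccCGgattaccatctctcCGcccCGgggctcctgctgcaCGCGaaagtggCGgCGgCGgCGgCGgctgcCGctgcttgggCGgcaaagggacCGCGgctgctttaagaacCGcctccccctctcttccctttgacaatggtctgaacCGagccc
Calcr: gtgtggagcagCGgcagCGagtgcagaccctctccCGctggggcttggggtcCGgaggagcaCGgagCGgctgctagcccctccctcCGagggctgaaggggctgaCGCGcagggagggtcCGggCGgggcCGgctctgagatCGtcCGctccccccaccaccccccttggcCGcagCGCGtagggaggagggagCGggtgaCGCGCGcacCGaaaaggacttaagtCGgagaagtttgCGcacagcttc
Pax7: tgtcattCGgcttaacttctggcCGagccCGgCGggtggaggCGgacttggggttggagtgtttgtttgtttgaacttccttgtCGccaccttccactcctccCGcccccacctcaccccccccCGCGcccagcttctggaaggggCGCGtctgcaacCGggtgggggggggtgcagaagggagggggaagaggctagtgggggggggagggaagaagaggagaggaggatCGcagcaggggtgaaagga
Myh4: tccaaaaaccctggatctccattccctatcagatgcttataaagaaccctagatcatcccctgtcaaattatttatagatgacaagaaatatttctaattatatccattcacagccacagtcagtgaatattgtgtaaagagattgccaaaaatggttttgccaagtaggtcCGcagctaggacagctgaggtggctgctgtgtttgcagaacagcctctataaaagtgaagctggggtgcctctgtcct
The Stk39 run held 43 CpG dinucleotides, Calcr 24, Kif17 22, Ppfia2 19 and Mitf 15. The Pax7 run held 13 and the Myh4 run 1. The 5 members shown lay above both contrasts in this count, although Mitf came close to Pax7. Single runs do not stand for a class. Over the whole classes the members were lower, with a median ratio of observed to expected CpG of 0.57 against 0.77 with H3K27ac. The letters GGGCGG, the core of a GC box, were present on either strand in the runs of Stk39, Mitf, Ppfia2, Calcr and Pax7 and in neither Kif17 nor Myh4. Kif17 held TGACGTCA, the full cAMP response element, and Myh4 held TATAAA. A promoter was found in the RefSeq table for 1129 of the 1518 members by symbol.

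H3K4me3 at these promoters was weaker and covered fewer bases than at promoters with H3K27ac. The fold enrichment of the strongest promoter peak, as the peak caller gave it, had a median of 9.33 in replicate 1 and 7.01 in replicate 2. The 9736 genes with H3K4me3 and H3K27ac in both replicates and no H3K27me3 had medians of 28.3 and 20.4. The 631 genes with H3K4me3 and H3K27me3 in both replicates and no H3K27ac had medians of 8.79 and 6.94, close to those of H3K4me3 alone. The bases covered by H3K4me3 within the windows had a median of 972 and 728.5 for H3K4me3 alone, 1923 and 1587 with H3K27ac, and 1331 and 928 with H3K27me3. These differences follow in part from the choice of genes and carry no test.

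The strengths nevertheless overlapped. In replicate 1, 382 of the 1518 members (25.2%) were at or above the 5th percentile of the genes with H3K27ac, a fold of 13.5, and in replicate 2 447 members (29.4%) were at or above it, at a fold of 9.39. At or above the median of the genes with H3K27ac lay 2 members in replicate 1 and 3 in replicate 2. The members ranged from a fold of 2.28 to 29.8 in replicate 1 and from 2.22 to 24.6 in replicate 2.

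**Figure D1:**
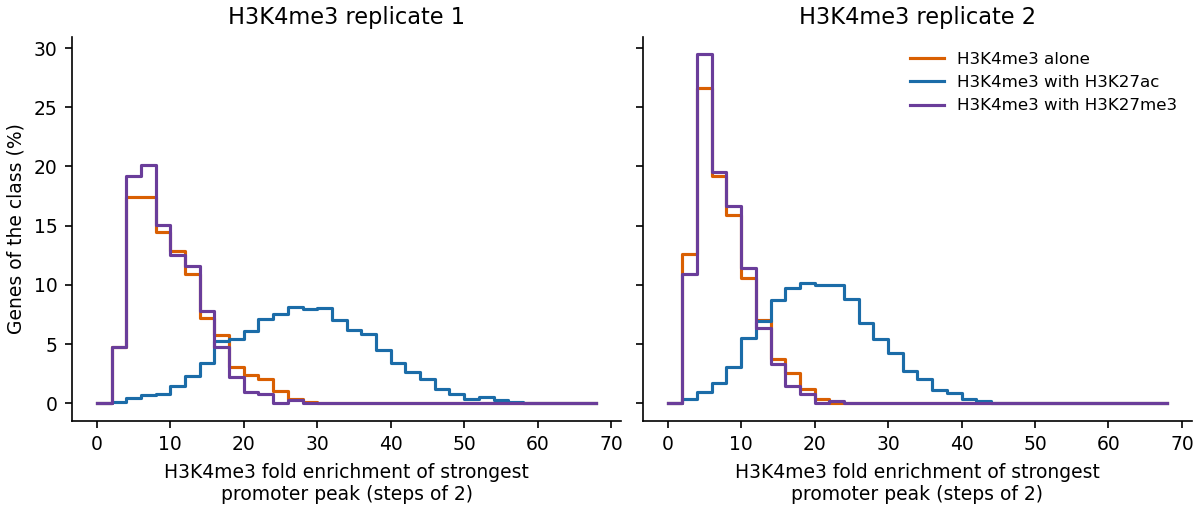
Share of genes (y axis, percent of the class) by H3K4me3 fold enrichment of the strongest promoter peak (x axis, steps of 2) in each replicate, for H3K4me3 alone, H3K4me3 with H3K27ac and H3K4me3 with H3K27me3. The median of H3K4me3 alone was 9.33 and 7.01 in the 2 replicates, against 28.3 and 20.4 with H3K27ac.

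The highest H3K4me3 among the members reached the level of an active promoter. Stk39, which encodes a kinase that controls cation-chloride cotransporters, had a fold of 25.5 in replicate 1 and 24.6 in replicate 2. Its nearest H3K27ac peak was 389 kb from a start site in both replicates. Its gene (ENSMUSG00000027030.15) spans chr2:68210445-68472268, and the peak of replicate 1, chr2:68470813-68472702, covered the start of the gene. Faim, an inhibitor of Fas-induced apoptosis, had folds of 29.8 and 20.4, and Ipo8, a nuclear import receptor, had 26.5 and 20.0. Kif17, a kinesin motor, had 23.6 and 19.9. For Faim, Ipo8 and Kif17 the nearest H3K27ac peak lay 148, 64.2 and 32.3 kb away in replicate 1. All 4 also had ATAC-seq peaks in both replicates, so open chromatin was present without a listed H3K27ac peak.

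A further group of these strong promoters lay near an H3K27ac peak that fell outside the window. Mok, which encodes a kinase of the MAP kinase family, had H3K4me3 folds of 25.5 and 19.4, and H3K27ac lay 3.63 and 3.96 kb away. Serf1 had folds of 26.7 and 19.2, with H3K27ac at 3.86 and 3.88 kb. Enkd1 had folds of 25.7 and 20.2, with H3K27ac at 6.14 and 5.99 kb. The rest of the 12 highest were Epb41l4b, Foxj1, Rapgefl1, Raver2 and Tmeff1, with folds of 21 to 24.1 in replicate 1 and 19.2 to 20.0 in replicate 2. Among all members the nearest H3K27ac peak of either replicate was within 5 kb for 67 (4.41%), at 5 to 10 kb for 139, at 10 to 50 kb for 610, at 50 to 100 kb for 271 and beyond 100 kb for 431 (28.4%). The median distance was 44.0 kb to H3K27ac and 232 kb to H3K27me3.

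The genes nearest to each distance limit show what the window decided. Just inside the rule, Ctrl lay 3007 and 3354 bases from H3K27ac in replicates 1 and 2, Metrn 3043 and 3037, and Fbln2 3045 and 3644. Just outside it, Dclk1 lay 2985 and 129249 bases away, Nxnl1 2954 and 3993, and Rhof 2954 and 3173. Dclk1, Nxnl1 and Rhof each fell out through 1 replicate only. On the side of H3K27me3, Llgl2 (3049 and 3251 bases), Mkrn3 (1335843 and 3168) and Hcrt (227994 and 3252) were kept. Hic1 (3074 and 2930), Map7d2 (125843 and 2796) and Prdm8 (73927 and 2792) were not. On the side of H3K4me3, Nkx6-3 was kept with peaks at 2980 and 2986 bases, Sostdc1 at 2929 and 2916 and Gpld1 at 2644 and 2863. Adamts13 (2919 and 3024), Pcp2 (2998 and 3037) and Cpt1b (2882 and 3044) missed it in replicate 2.

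The 6 genes with the most bases covered by H3K4me3 were of varied function. The bases were summed over all peaks in the windows, so they are not the width of 1 domain. Alcam, an adhesion molecule of the immunoglobulin family, had 4265 bases covered in replicate 1 and 3683 in replicate 2. Igfbp5, which binds insulin-like growth factors, had 3944 and 3222, and Pappa, a protease that cleaves binding proteins of this family, had 3591 and 3102. Phf21b (3741 and 3575), Tmem178b (3276 and 3237) and Dach1, a transcriptional repressor (3342 and 3046), made up the 6. Their folds were 11.7 to 21.5 in replicate 1 and 8.02 to 12.6 in replicate 2. Epas1, which encodes hypoxia-inducible factor 2 alpha, and Cdkn1c, the cyclin-dependent kinase inhibitor p57, were picked after their values were seen. Epas1 had 3134 and 2555 bases covered at folds of 16.2 and 13.4, and Cdkn1c had 2494 and 2313 at folds of 13.6 and 11.0.

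H3K4me3 lay on a start site in most of the genes. In replicate 1, 87.5% of the members had a start site inside an H3K4me3 peak, and in replicate 2 81.3% did (84.4% ± 4.38, SD, n = 2 libraries). With H3K27ac the shares were 97.9% and 97.1%, and over all protein-coding genes they were 59.0% and 56.8%. Of the members, 1223 had a start site in H3K4me3 in both replicates, 116 in 1 replicate and 179 in neither. For 31 of those 179 the strongest peak of replicate 1 held a start site of another protein-coding gene. The 1518 genes shared 1452 distinct peaks in replicate 1, and 129 members shared their peak with another member, so neighbouring genes are not independent cases.

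Shared peaks were seen at the head-to-head collagen IV genes, which were added after their values were seen. Col4a3 and Col4a4, which encode chains of the glomerular basement membrane, shared a peak on chromosome 1 with folds of 7.00 and 4.81. Col4a5 and Col4a6 shared a peak on the X chromosome with folds of 5.83 and 4.10, and no start site of Col4a6 lay in it. Rps25 and Trappc4, a ribosomal protein gene and a vesicle tethering gene, shared a peak with folds of 11.7 and 7.21 that covered no start site of either.

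Nearly all of the promoters were accessible. The rule did not use ATAC-seq, although accessibility went with H3K4me3, which it did use. An ATAC-seq peak lay within the windows of 96.0% of the members in replicate 1 and 93.2% in replicate 2 (94.6% ± 1.96, SD, n = 2 libraries). Over all protein-coding genes the shares were 72.4% and 68.6%. With H3K27ac they were 99.98% and 99.95%, with H3K27me3 98.1% and 95.6%, and without H3K4me3 27.2% and 18.4%. Both replicates had a peak for 1395 members (91.9%), against 67.8% of all genes, and 41 members (2.70%) had none in either. In each library the members stood at −4.00 and −6.73 percentage points relative to the genes with H3K27ac, a larger gap than the 2.77 points between the libraries for the members. An exact sign-flip test over 2 libraries gives p = 0.5 (two-sided) at best, so this test could not separate the classes with 2 libraries.

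The ATAC-seq peaks were also lower than those at promoters with H3K27ac. The median ATAC-seq fold enrichment was 10.6 in replicate 1 and 9.25 in replicate 2 for H3K4me3 alone (9.94 ± 0.971, SD, n = 2 libraries), against 15.1 and 13.9 with H3K27ac and 9.50 and 7.54 with H3K27me3. Over all protein-coding genes with an ATAC-seq peak it was 13.3 and 12.2. The gap to the genes with H3K27ac was −4.50 and −4.63, larger than the 1.37 between replicates. The gap to the genes with H3K27me3 was 1.12 and 1.70, of the size of that between replicates. A start site lay inside an ATAC-seq peak for 75.8% and 73.2% of the members, 95.8% and 95.9% of the genes with H3K27ac, and 61.0% and 56.9% of those with H3K27me3. The gaps of the members were −20.0 and −22.7 points to the former and 14.8 and 16.3 points to the latter, against 2.64 points between the replicates. Over all protein-coding genes a start site lay inside an ATAC-seq peak for 58.4% and 57.8%. Where a member had both peaks, the strongest ATAC-seq peak overlapped the strongest H3K4me3 peak in 79.9% and 81.4% of cases, compared with 88.5% and 89.1% with H3K27ac.

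Weaker H3K4me3 went with weaker accessibility, so the classes were also set side by side at like H3K4me3 strength. At a lower H3K4me3 fold of 8 to 12, the median ATAC-seq fold in replicate 1 was 11.3 for 397 members, 15.03 for 840 genes with H3K27ac and 10.5 for 170 genes with H3K27me3. In replicate 2 the medians were 9.73, 13.9 and 8.63. At a fold of 4 to 6 they were 9.81, 11.5 and 8.47 in replicate 1, over 397, 94 and 187 genes. At 12 to 16 they were 11.9, 15.2 and 12.1, over 160, 1544 and 61 genes. Members stayed below the genes with H3K27ac in each of the 6 steps and both replicates. From 12 upwards few genes with H3K27me3 remained, 61 and 14 in the last 2 steps.

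**Figure D2:**
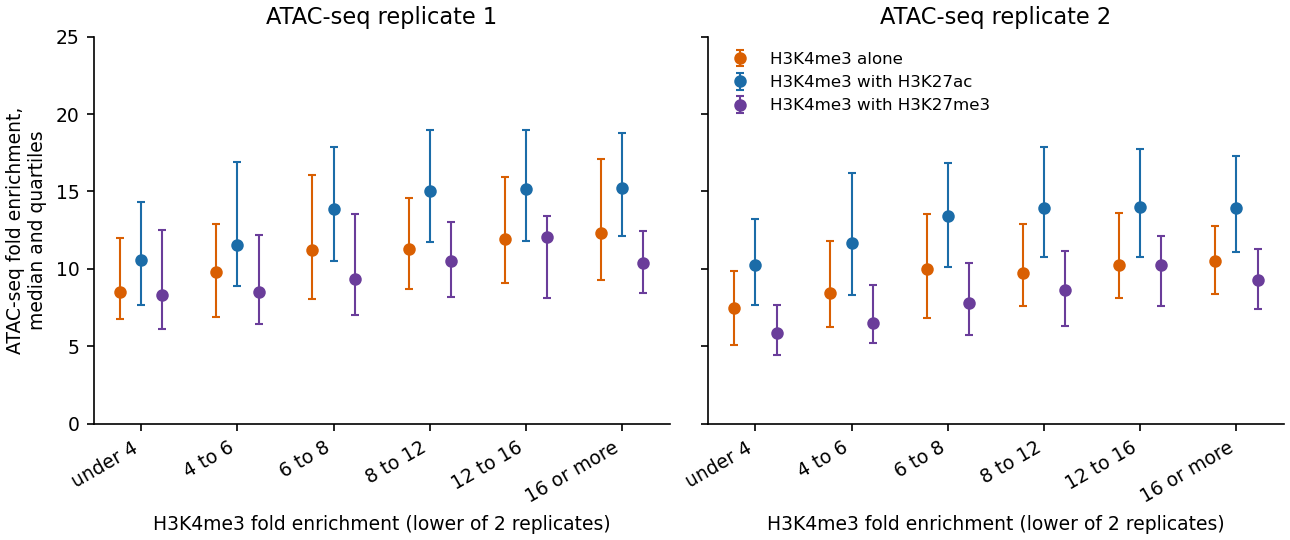
Median ATAC-seq fold enrichment of the strongest promoter peak (y axis, bars from the lower to the upper quartile over genes) by H3K4me3 fold enrichment (x axis, lower of 2 replicates) for the 3 classes, 1 panel per ATAC-seq replicate. At 8 to 12 the medians in replicate 1 were 11.3 for H3K4me3 alone, 15.03 with H3K27ac and 10.5 with H3K27me3.

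None of the 8 members with the highest ATAC-seq enrichment was among the 12 with the highest H3K4me3. Mitf, a basic helix-loop-helix transcription factor known from melanocytes, had ATAC-seq folds of 29.02 and 34.2 with H3K4me3 folds of 20.3 and 13.4, and H3K27ac lay 396 and 495 kb away. Parm1 had ATAC-seq folds of 30.5 and 30.8, but H3K4me3 folds of only 5.56 and 6.01. Ccdc89 had ATAC-seq folds of 27.3 and 27.2 at H3K4me3 folds of 7.46 and 6.89. Clpb, a mitochondrial protein disaggregase, had ATAC-seq folds of 33.6 and 28.4. Chchd6, a subunit of the complex that shapes mitochondrial cristae, had 27.7 and 27.8, and Gcdh, an enzyme of lysine breakdown, had 26.4 and 29.3. Tctn3 of the ciliary transition zone (27.2 and 28.3) and Phkg1, the muscle catalytic subunit of phosphorylase kinase (27.2 and 26.2), completed the 8. For Phkg1 no start site lay in H3K4me3, and the nearest peak edge was 2284 and 2434 bases off.

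Of the 41 members without any ATAC-seq peak, the 8 with the highest H3K4me3 were looked at singly. Adam5, of the ADAM family expressed in testis, had H3K4me3 folds of 16.3 and 12.4 over a start site, with 943 and 879 bases covered. Ppfia2, which encodes a liprin of the presynaptic active zone, had 8.97 and 6.81, also over a start site. In contrast, only 21 and 15 bases of the H3K4me3 peak near Nkx6-3, a homeobox gene, lay in the window, and for Tnfrsf18, a receptor of T cells, 264 and 183 did. Zxdb (242 and 199 bases), Rps25, Trappc4 and Tigd4 likewise had no start site in H3K4me3. Of these 8, picked by their H3K4me3 fold, 6 had H3K4me3 beside and not on a start site, against 179 (11.8%) of all members. Rps25 and Trappc4 shared a peak and are not independent cases.

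Promoters with H3K4me3 alone were intermediate in CpG content. The ratio of observed to expected CpG in the 300 bases around the start site of the gene (250 before and 50 after) had a median of 0.57 over the members, 0.77 with H3K27ac, 0.70 with H3K27me3 and 0.18 without H3K4me3. The quartiles of the members were 0.38 and 0.74, so the classes with H3K4me3 overlapped widely. At the start site nearest to the H3K4me3 peak the medians were 0.66, 0.84 and 0.79 for the 3 classes with H3K4me3. The GC content of that window was 62.0% for the members, 64.3% with H3K27ac and 67% with H3K27me3.

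The order changed at like H3K4me3 strength. At a fold of 4 to 6 the median CpG ratio was 0.57 for the members, 0.39 with H3K27ac and 0.73 with H3K27me3. At 6 to 8 it was 0.66, 0.48 and 0.79, and at 8 to 12 it was 0.72, 0.70 and 0.83. At 16 or more the members had 0.83 and the genes with H3K27ac 0.87. At low H3K4me3 the members were thus richer in CpG than genes with H3K27ac and poorer than genes with H3K27me3, and the 3 classes drew together as H3K4me3 rose. These are single values of the reference sequence, with the spread over genes shown by quartiles and no replicate error.

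**Figure D3:**
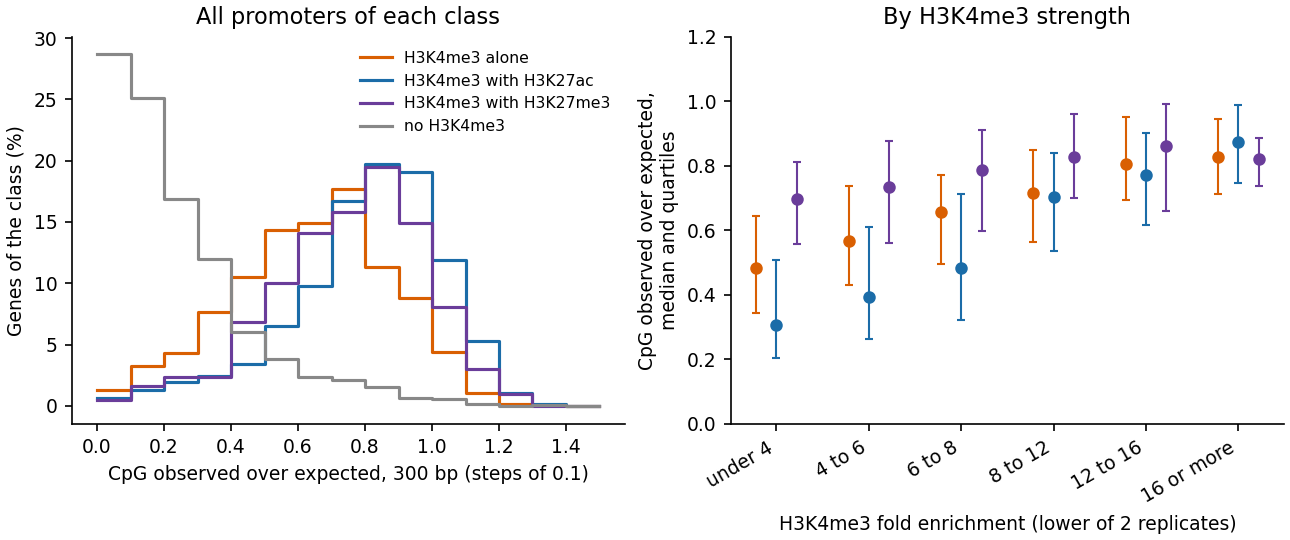
Left, share of genes (percent of the class) by the ratio of observed to expected CpG in 300 bases at the start site nearest to the H3K4me3 peak, in steps of 0.1. Right, median and quartiles of that ratio by H3K4me3 fold enrichment (lower of 2 replicates): at 4 to 6 the medians were 0.57 for H3K4me3 alone, 0.39 with H3K27ac and 0.73 with H3K27me3.

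Of 10 sequence motifs searched on both strands of the same 300 bases, the ETS motif CCGGAAG differed most in its share of promoters between the members and the genes with H3K27ac. It was present in 114 members (7.51%), against 20.9% of the promoters with H3K27ac, 3.80% of those with H3K27me3 and 11.6% of all protein-coding promoters. At like H3K4me3 strength the order depended on the step. Below a fold of 4 the motif was present in 3.81% of the members and 2.33% of the genes with H3K27ac, and at 4 to 6 in 7.56% and 5.32%. At 6 to 8 it was present in 8.25% and 12.4%, at 8 to 12 in 7.30% and 17.5%, at 12 to 16 in 11.3% and 20.8%, and at 16 or more in 7.94% and 21.8%. The members thus had the lower share from 6 upwards and the higher share below it, where the genes with H3K27ac numbered 43 and 94. AAGATGGCG, the motif of YY1, was found in 6 members (0.395%), against 4.70% with H3K27ac and 2.34% of all. CACGTG, the palindromic E-box, was found in 6.72%, 10.0% and 7.45%, and CGCATGCG, part of the NRF1 motif, in 2.17%, 4.01% and 2.58%. TGACGTCA was found in 1.78%, 3.46% and 2.29%.

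The other motifs differed in direction. CAGCTG, an E-box bound by muscle regulatory factors, was found in 295 members (19.4%), against 14.3% of the genes with H3K27ac, 17.1% with H3K27me3 and 15.95% of all. TATAAA was found in 5.27% of the members, 4.23% with H3K27ac, 21.7% without H3K4me3 and 11.1% of all. GGGCGG was found in 61.7%, 70.0%, 13.6% and 47.8%, in the same order, and CCAAT in 30.4%, 33.6%, 40.9% and 36.1%. TGACTCA, the AP-1 site, was found in 3.75%, 2.53%, 6.83% and 4.24%. A match is a description of the letters, since binding was not measured here.

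The X chromosome carried more of these promoters than any autosome. On X, 126 of 433 genes with H3K4me3 (29.1%) had H3K4me3 alone, against 1392 of 12892 (10.8%) on the autosomes. The autosomes ranged from 7.66% on chromosome 19 to 15.3% on chromosome 6, so X lay outside their range. None of the 3 genes with H3K4me3 on Y was a member. X-linked members included Syn1, Pcdh19, Pcdh11x, Zxdb, Col4a5 and Col4a6.

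The fold enrichment of H3K4me3 and of H3K27ac was lower on X, and that of ATAC-seq was not. For genes with both marks the median H3K4me3 fold was 16.9 and 12.02 on X against 28.7 and 20.7 on the autosomes, and the median H3K27ac fold was 9.20 and 7.72 against 15.3 and 12.5. The median ATAC-seq fold was 15.9 and 14.5 on X and 15.1 and 13.9 on the autosomes. At like H3K4me3 strength the share of members on X was above that on the autosomes at a fold of 4 to 6 (77.2% against 46.9%) and below it at 8 to 12 (18% against 22.8%). The part of the lower ChIP-seq enrichment on X in the share of members was not tested. The sex of the mice is not given in the sources used here, so the values on X could not be set beside it.

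**Figure D4:**
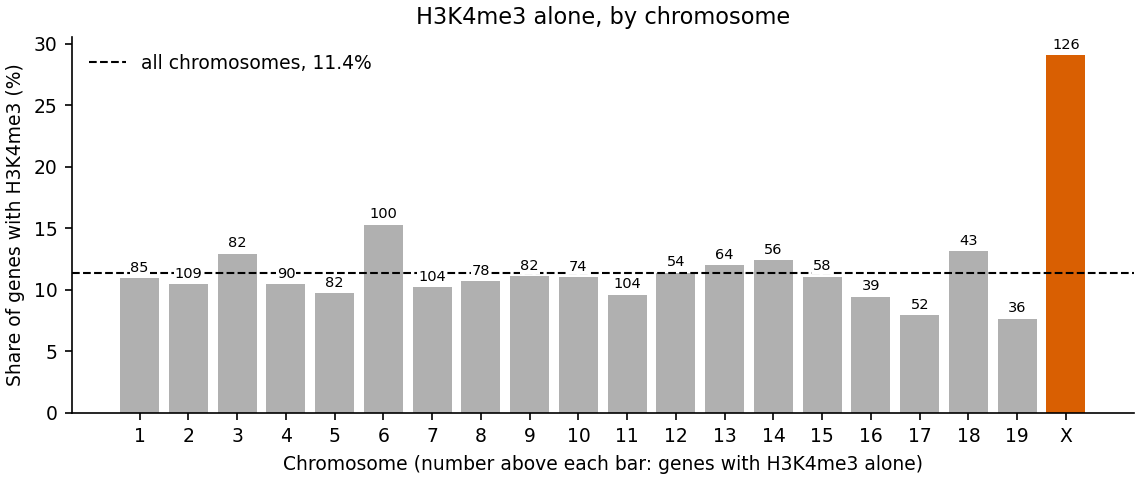
Share of genes with H3K4me3 that had H3K4me3 alone (y axis, percent) by chromosome, with the number of such genes above each bar and the share over all chromosomes, 11.4%, as a dashed line. X stood at 29.1%, and the autosomes lay between 7.66% and 15.3%.

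To describe the members by function, lists of genes were set beside the 11.4% of all genes with H3K4me3 that were members. That share was 45.4% (898 of 1976 genes) where the lower H3K4me3 fold was below 8. The counts below 8 are therefore given beside the larger lists.

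Motile cilia beat on airway and ependymal cells. Of 70 genes of motile cilia, 48 had H3K4me3 and 18 of these (37.5%) had it alone, while 19 also had H3K27ac. Below a fold of 8 it was 15 of 20. Foxj1, the transcription factor that switches on the motile cilium programme, was the highest, with folds of 24.1 and 19.8 and ATAC-seq folds of 11.9 and 8.45. Its H3K4me3 peak of replicate 1 lay at chr11:116335002-116336000 over the start of the gene (ENSMUSG00000034227.7), and the nearest H3K27ac was 28.2 and 28.8 kb away. Dnah2, an axonemal dynein heavy chain, had 17.1 and 8.02, Rsph1 of the radial spoke 11.7 and 8.02, and Spag1, a dynein assembly factor, 7.83 and 6.05. For Dnah2 no start site lay in H3K4me3 in either replicate. By comparison, 4 of 58 genes of the primary cilium with H3K4me3 (6.90%) were members, namely Kif7, Bbs5, Tctn3 and Bbs1, and 46 had H3K27ac. Only 2 of the 58 had a lower H3K4me3 fold below 8, and neither was a member. The shares of the motile and primary cilium lists are therefore not compared at like H3K4me3 strength.

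Ion channels set the electrical activity of nerve and muscle. Of 79 ion channel genes named Kcn, Cacn or Scn with H3K4me3, 24 (30.4%) had it alone, 11 with H3K27ac and 23 with H3K27me3. Below a fold of 8 it was 14 of 38, near the 45.4% of all such genes. Cacnb4, a calcium channel subunit, had folds of 22.97 and 16.1, and the potassium channel genes Kcnj12, Kcnk13 and Kcnq5 had 16.8 to 18.5 in replicate 1 and 13.4 to 14.03 in replicate 2. Among neurotransmitter receptor genes 12 of 33 (36.4%) were members. All 12 were among the 24 genes below a fold of 8, near the 45.4% of all such genes. The 12 members included Chrne, the acetylcholine receptor subunit of adult muscle (6.95 and 6.66), and the GABA receptor gene Gabra4 (7.16 and 5.81). The glutamate receptor gene Grik2 (8.44 and 5.61) and the serotonin receptor gene Htr2a (6.82 and 5.21) were also among them. No start site of Htr2a lay in H3K4me3. Of 10 neuron markers, 4 had no H3K4me3 in either replicate and 4 had it in both. All 4 of the latter were below a fold of 8, where 45.4% of all genes were members. Of these, 3 were members: Elavl4 (5.92 and 5.01), Syn1 (7.36 and 4.61) and Syt1 (4.16 and 2.41). So few weak genes do not set the list apart. No start site of Syt1 lay in H3K4me3.

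Of the receptor genes named Gpr or Adgr 17 of 44 with H3K4me3 (38.6%) were members, and 11 of 16 below a fold of 8, with Adgrg6, an adhesion receptor, at 20.3 and 16.03 and Gpr135 at 22.6 and 15.9. Protocadherins, which mediate adhesion between neurons, gave 6 of 13 (46.2%), and 5 of 7 below a fold of 8, with Pcdh19 at 10.4 and 8.02 and Pcdh9 at 11.4 and 7.65. Collagens gave 10 of 32 (31.3%), and 9 of 15 below a fold of 8. Col12a1 was the highest at 14.2 and 10.6, and its ATAC-seq fold was 58.2 in replicate 1 and 21.1 in replicate 2. Col1a1, the chain of type I collagen, had 7.72 and 5.55, Col11a1 8.44 and 5.40, and Col6a6 5.26 and 5.35. Solute carriers gave 31 of 206 (15.05%), and 16 of 40 below a fold of 8, near the 45.4% of all such genes. The solute carriers were led by Slc24a3 (18.2 and 17.4), Slc12a9 (22.6 and 16.4), Slc27a3 (14.8 and 14.1) and the glutamate transporter Slc1a3 (16.3 and 13.6).

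Germline genes gave 6 of 21 (28.6%), and 5 of 10 below a fold of 8, near the 45.4% of all such genes. Syce2, a component of the synaptonemal complex, had folds of 12.4 and 10.2, Terb1, which tethers meiotic telomeres, 7.82 and 7.73, Tdrkh of the piRNA pathway 11.1 and 7.62, and Stag3, a meiotic cohesin, 10.8 and 6.83. All 6 had ATAC-seq peaks in both replicates, as did 91.9% of all members. The 3 large families below were close to the 11.4% of all genes with H3K4me3: zinc finger genes with 32 of 352 (9.09%), Tmem genes with 21 of 189 (11.1%) and Ccdc genes with 13 of 97 (13.4%). Below a fold of 8 they gave 20 of 38, 11 of 36 and 10 of 22. Zfp61 (23.2 and 13.6), Tmem44 (22.4 and 17.03) and Ccdc149 (21 and 12.4) led them.

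**Figure D5:**
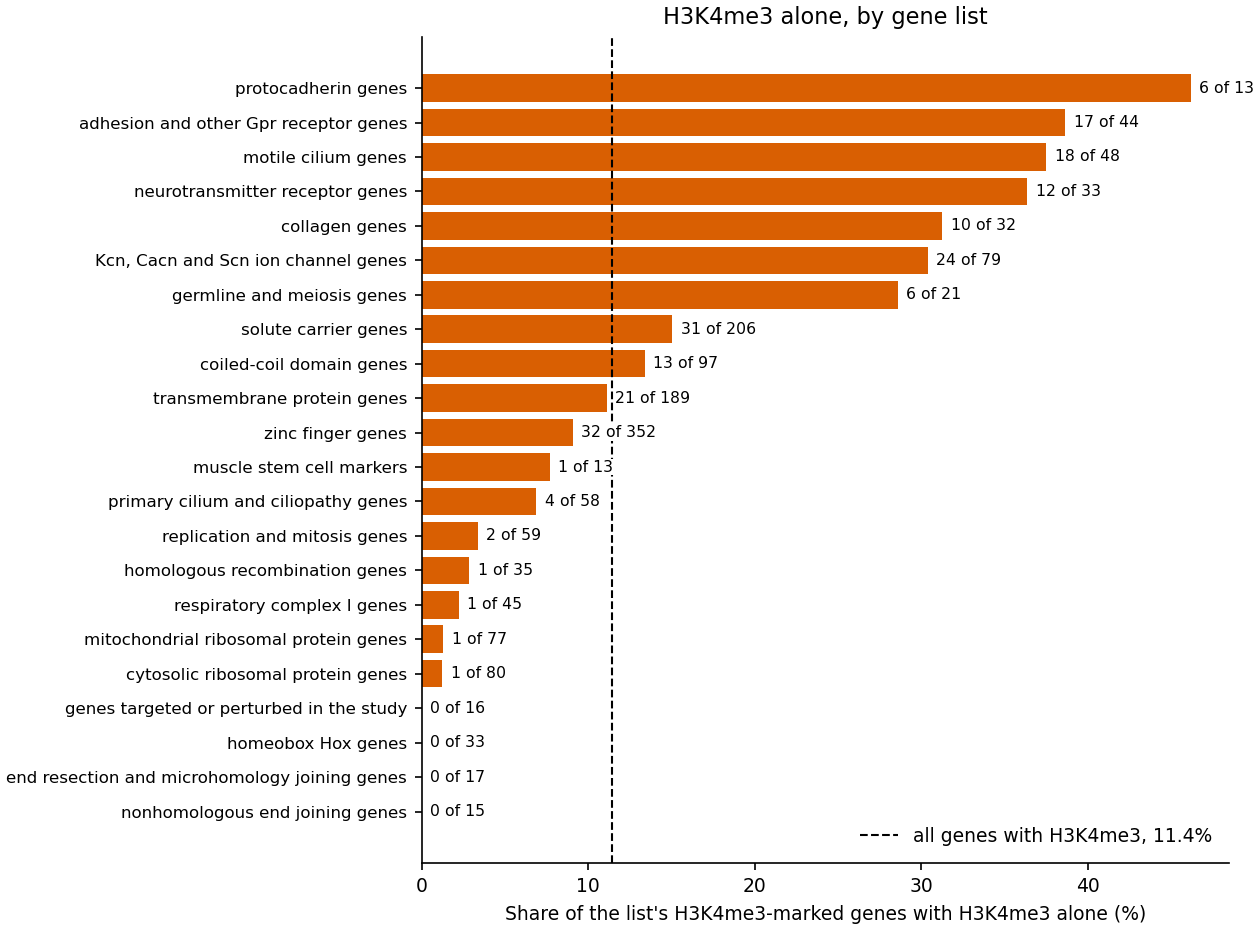
Share of the H3K4me3-marked genes of each list that had H3K4me3 alone (x axis, percent), for lists with 13 or more such genes, with the counts beside each bar and the share over all genes with H3K4me3, 11.4%, as a dashed line. Protocadherins (46.2%), Gpr and Adgr receptors (38.6%) and motile cilium genes (37.5%) stood highest. Both end joining lists stood at 0, over only 15 and 17 genes, none with a lower H3K4me3 fold below 8. Respiratory complex I genes were taken by the symbol Nduf.

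None of 15 genes of nonhomologous end joining and none of 17 genes of end resection and microhomology joining was a member, and 15 and 16 of them had H3K27ac. No gene of either list had a lower H3K4me3 fold below 8, where the share of members over all genes was 45.4%. In lists this small, a share of 11.4% also means few members, so these counts do not set the genes apart. Homologous recombination gave 1 of 35, Fanca of the Fanconi anaemia core complex, with folds of 11.3 and 10.6 and high ATAC-seq folds of 24.8 and 24.3. Replication and mitosis gave 2 of 59: Kif23, a kinesin of the midbody (26.5 and 16.1), and Bub1, a kinase of the spindle checkpoint (22.9 and 15.6). Cytosolic ribosomal proteins gave 1 of 80 (Rps25) and mitochondrial ribosomal proteins 1 of 77 (Mrpl35, 19.7 and 12.8). Genes named Nduf gave 1 of 45 (Ndufa4l2, 17.4 and 15.03, with no start site in H3K4me3). From homologous recombination to Nduf, the genes with a lower fold below 8 numbered 2, 1, 4, 0 and 0. Rps25 was the only member among them. The low shares of these lists are therefore not compared with the 11.4% at like H3K4me3 strength. All 16 genes that the study targeted or perturbed had H3K27ac, and none was a member. None of these had a lower H3K4me3 fold below 8 either.

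None of 33 Hox genes with H3K4me3 was a member, against 11.4% of all genes with H3K4me3. Of the 33, 12 had H3K27me3 in both replicates without H3K27ac, and 6 had H3K27ac in both without H3K27me3. Below a fold of 8 lay 14 of them, where 45.4% of all genes were members. None of 1135 olfactory receptor genes had H3K4me3 in both replicates. Keratin and vomeronasal receptor genes had H3K4me3 at 3 of 113 and 1 of 331 genes, and none was a member.

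Among the cell type markers, Calcr was the MuSC marker with H3K4me3 alone. It encodes the calcitonin receptor, which is known to hold MuSCs in quiescence. Its H3K4me3 folds were 18.3 and 13.2, and its ATAC-seq folds were 12.2 and 10.4. The peak of replicate 1, chr6:3761869-3764398, covered the start site whose sequence is given above, and the nearest H3K27ac peak was 9.79 and 9.59 kb off. Its H3K4me3 was therefore close to that of Pax7, at 19.03 and 12.6, whose H3K27ac folds were 15.02 and 14.7. Of the markers of other cells, besides the neuron markers above, Dpp4 (6.99 and 5.21), Egfl7 (14.4 and 8.62), Esam (9.33 and 5.89) and Coro1a (6.99 and 5.61) were members. Coro1a lay 4.70 and 4.91 kb from H3K27ac.

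At the lower end, the weakest members were close to the limit of the peak lists. T2 had H3K4me3 folds of 3.43 and 2.22, Serpinb1a 3.33 and 2.40, and Syt1 4.16 and 2.41, and these 3 were picked by their values among genes with a regular symbol. The −log10 q values of T2 were 7.28 and 1.68, so replicate 2 held it barely. A further 305 genes had H3K4me3 in 1 replicate only and neither of the other marks, and 622 genes with H3K4me3 in both replicates had H3K27ac in 1 replicate only.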

How the data were processed

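ChIP-seq and ATAC-seq were measured in sorted MuSCs, in 8 of the 272 samples of the series. Per the study's methods, the authors trimmed reads with Trim Galore 0.6.10, aligned them to mm10 with BWA 0.7.17-r1188, dropped reads of low mapping quality, duplicates (SAMtools 1.5 among the tools) and blacklisted regions, shifted ATAC-seq reads for the transposase offset (deepTools 3.5.5) and called peaks with MACS2 2.2.6. Genes in repeated sequence can lose peaks to the mapping filter. The peak lists, as the authors deposited them, hold per peak a fold enrichment as MACS2 gives it, −log10 p and −log10 q values and a score, which was not used. Peaks were called in each library separately, and whether the reserved input served as control is not given in the sources used here. The lowest −log10 p and q were 3.44 and 1.32 in H3K27ac and 3.34 and 1.33 in H3K4me3, but 3.01 and 0 in H3K27me3, so H3K27me3 was listed at a looser limit. The lists held 94574 to 140937 peaks for ATAC-seq, 18006 to 20519 for H3K4me3, 18589 to 24217 for H3K27ac and 6080 to 10485 for H3K27me3. The read depth of the libraries is unknown from these files, so no counting interval is given.

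Start sites of all transcripts of protein-coding genes of GENCODE M21 were extended by 3 kb on either side, and a peak counted with 1 bp of overlap, in Python 3.11.15 with numpy 2.4.6 and pandas 2.3.3. Simulated windows with planted peaks served to check the overlap step. Each gene took its strongest peak per library. No test was run across genes, since genes of 1 library are not replicates and the members were chosen from these lists: classes were compared within each library, and the gap was set beside that between the 2 libraries. The members and the gene lists were chosen with earlier results of these data known. The genes named were, among members with a regular symbol, the 12 with the highest H3K4me3 fold, the 6 with the most bases covered, the 8 with the highest ATAC-seq fold and the 8 without ATAC-seq and the highest H3K4me3 (all by the lower of the 2 replicates), up to 4 per gene list, and 3 on either side of each distance limit. The remaining 264 samples were not analysed here.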

Additional observations from a re-analysis of the deposited data

How the results depend on the processing

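Of 1518 genes, the count rose to 2531 when weaker peaks (−log10 q under 5) were dropped from all lists (1365 of the 1518 were kept) and to 2522 when H3K27ac or H3K27me3 had to be listed in both replicates to count (all 1518 kept). With 1 replicate of each feature it was 2177 to 2188. A window of 1 kb gave 1612 genes and 5 kb gave 1496, with 1455 and 1431 of the 1518 kept. Leaving out H3K27me3 peaks above q = 0.05 gave 1713, start sites of protein-coding transcripts gave 1534, and 100 bp of overlap gave 1590. The share with ATAC-seq, 94.6%, was 90.8% with 100 bp of overlap, and lay between 93.6% and 96.2% under the other alternatives. The median H3K4me3 fold lay between 8.02 and 9.48 and the share with a start site in H3K4me3 between 80.9% and 87.1%, both within the spread of the libraries. The median CpG ratio of 0.57 was 0.575 in 1 kb centred on the start site and 0.657 at the start site nearest to the H3K4me3 peak. No paired analysis was possible because the groups are different features, whose replicate numbers are not said to pair. The classes of genes were set side by side within each library, where the exact sign-flip test gives p = 0.5 at best. A peak list gives no signal below its limit, which bounds every statement on a missing mark.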

Other observations

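Genes with H3K4me3 alone were long. The median gene body was 32.01 kb for the members, 24.7 kb with H3K27ac, 18.1 kb with H3K27me3, 8.63 kb without H3K4me3 and 17.4 kb over all protein-coding genes. They had a median of 3 annotated start sites, against 5 with H3K27ac and 3 with H3K27me3. The rule asked for no H3K27ac peak near any start site, so this number is not independent of the choice of genes. The shares with a peak in the windows or a start site in a peak also counted any start site. Of the members, 87 (5.73%) had a Gm, Rik or clone name, against 9.96% of all genes.

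Among genes with H3K4me3 in both replicates, 331 had H3K27me3 in 1 replicate only and no H3K27ac, and 490 had some H3K27ac and some H3K27me3. ATAC-seq was listed in replicate 1 only for 62 members and in replicate 2 only for 20, and the ATAC-seq list of replicate 1 held more peaks (140937 against 94574).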
